A study of Mus musculus with 3 samples.

Results

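Broad RARα domains are stretches of the mouse liver genome that were filled by RARα peaks lying end to end. They were selected on the positions in the deposited RARα peak list. All 143280 peaks were joined wherever the next peak started 10 bp or less after the end of the previous one, which gave 92167 joined domains, and the 421 that were 3 kb or wider (0.457%) are described here. The joined domains of 1 to 3 kb, 7750 in number, serve as the comparison. Chromatin was taken from liver of wild type male C57BL/6 mice, 3 months old, with 1 library from chromatin precipitated with an anti-RARα antibody, 1 with an anti-RXRα antibody and 1 from input chromatin labelled as the input of the RXRα experiment. For RARα only the peak list was used here, while RXRα and input were deposited as signal tracks. Their totals correspond to 9.99994 M and 9.99929 M reads if a read adds 5 to the total, and such nearly equal totals, which differ from the read number in the study's own account for RXRα, are not taken as the sequencing depth. There were no replicates and no second genotype or condition, so no difference given here was tested. All intervals are 95% exact binomial intervals that cover counting error alone and treat domains as separate, although neighbouring domains often lie in the same gene.

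Retinoic acid receptors are nuclear receptors that are activated by retinoic acid, the acid form of vitamin A. RARα is known to pair with a retinoid X receptor such as RXRα, and the pair binds short repeated DNA sequences called direct repeats, both with and without its ligand. RXRα also pairs with other nuclear receptors of the hepatocyte, so its binding is not limited to sites of RARα. A sequence-specific factor usually gives a narrow peak, and joined stretches of several kb are unusual for one.

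Where the RXRα signal was highest inside a domain, the sequence was searched for exact direct repeats, the class of site that the receptor pair binds. RXRα also pairs with other nuclear receptors, so a repeat found here, of any spacing, is not assigned to its pair with RARα. An RXRα region is a run of 32 bp bins with an RXRα signal 20 times the input or more, the input being no lower than its genome mean, and bins within 200 bp were joined. The half-site AGGTCA was searched together with its variant AGTTCA, the variant GGGTCA and the further variant GGTTCA, on both strands in windows of 201 bp, with 1 to 5 bases between both copies (DR1 to DR5). Of the 276 broad domains with an RXRα region 3 held a repeat in the window of the highest RXRα signal (1.09%, interval 0.225 to 3.14%). These 3 lay outside annotated exons of protein-coding genes and are printed on the mm9 genome, 5′ to 3′ on the strand of the repeat. Capitals mark the 2 copies of the repeat alone, and other copies of a half-site are left in lower case.
Rnf169 domain, DR2 (chr7:107126719-107126782, minus strand): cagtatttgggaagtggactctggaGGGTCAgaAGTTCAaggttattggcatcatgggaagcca
Trpm8 inner domain, DR5 (chr1:90180887-90180953, plus strand): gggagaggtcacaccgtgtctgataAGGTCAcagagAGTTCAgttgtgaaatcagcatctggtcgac
Mgst1 end domain, DR3 (chr6:138106175-138106239, minus strand): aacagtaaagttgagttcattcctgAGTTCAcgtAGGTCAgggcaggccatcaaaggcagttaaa

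Windows 1 kb beside held a repeat in 2 of 276 cases (0.725%), and the RXRα maxima of the 4249 narrower domains with an RXRα region held one in 69 (1.62%), of which 27 were DR1. At the strongest RARα summit of each broad domain 0 of 421 windows held an exact repeat, which allows a share of up to 0.872%. The half-site AGGTCA alone was in 67 of the 276 RXRα maxima (24.3%, interval 19.3 to 29.8%), in 42 of the windows beside them (15.2%, interval 11.2 to 20.01%), in 38 of the 145 maxima of broad domains without an RXRα region (26.2%), in 1039 of the 4249 maxima of narrower domains with one (24.5%) and in 62 of the 421 strongest RARα summits (14.7%). The half-site was thus about as frequent at the RXRα maxima of broad domains without an RXRα region as at those with one. A match is a description of these letters and not a receptor site.

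The following sequences show the contrast between the domains with the highest RXRα over input and the widest RARα domain. The first 3 are the windows of highest RXRα signal in domains among the 5 with the highest RXRα, and the last is the strongest RARα summit in the 67270 bp domain of Cps1. All are from the plus strand of mm9, and capitals mark AGGTCA on either strand.
Domain upstream of Klf9 (chr19:23210261-23210381, plus strand): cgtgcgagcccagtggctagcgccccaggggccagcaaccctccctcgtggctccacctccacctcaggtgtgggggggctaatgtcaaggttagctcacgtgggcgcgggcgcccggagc
Domain downstream of Phlda1 (chr10:111019413-111019533, plus strand): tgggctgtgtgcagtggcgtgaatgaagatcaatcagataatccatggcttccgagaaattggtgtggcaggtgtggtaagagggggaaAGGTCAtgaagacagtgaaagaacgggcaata
Zfp36 domain (chr7:29161557-29161677, plus strand): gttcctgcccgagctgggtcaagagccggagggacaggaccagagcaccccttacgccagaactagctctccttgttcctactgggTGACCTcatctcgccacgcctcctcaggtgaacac
Widest Cps1 domain, strongest RARα summit (chr1:67234915-67235035, plus strand): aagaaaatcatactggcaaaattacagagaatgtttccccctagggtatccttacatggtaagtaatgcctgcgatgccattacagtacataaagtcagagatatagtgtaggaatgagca

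In the window at Klf9 the RXRα signal was 125 times the input and no AGGTCA was present, whereas the windows near Phlda1 and Zfp36, at 110 and 143 times the input, held 1 copy each. At the Cps1 summit the RXRα signal was 0.800 times the input and no AGGTCA was present. Strong RXRα signal and the exact half-site were therefore not found together at every one of these domains.

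The broad domains held 5381 of the peaks (3.76%) and 2359 kb, or 4.67% of the 50.5 Mb covered by joined peaks. Their width had a median of 4090 bp and ran from 3000 to 67270 bp. Of the 421, 145 were at least 5 kb wide, 39 at least 10 kb and 6 at least 20 kb. A broad domain joined a median of 10 peaks, from 3 to 120, and a domain of 1 to 3 kb a median of 3. The score of the best peak had a median of 48 in the broad and 37 in the narrower domains, and it was picked from more peaks in the broad ones. The median score within a domain had a median of 20 in the broad and 17.5 in the narrower domains. The score is the value the peak caller gave each peak, and it ran from 5 to 382 over the list. Just inside the width limit, domains at Lsr, a lipoprotein receptor gene, at Cdk12, a transcription kinase gene, and at a site outside genes on chromosome 2 were each 3000 bp wide. Just outside it, the domains at H6pd, Proz and Ak3 were 2990, 2981 and 2981 bp wide.

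The number of domains depended on the score as well, and 130 remained when only peaks with a score above 20 were joined. The existence of the domains also rests on how the peak list was divided. In 50926 of 143259 neighbouring pairs the gap was exactly 10 bp, and in 187 it was smaller. If only gaps below 10 bp were joined, 2 domains of 3 kb remained, and the widest single peak was 3251 bp. How runs of enrichment were cut into peaks is not given in the sources used here, and whether a domain is 1 plateau or a row of separate summits cannot be told apart from the list.

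Most broad domains lay over protein-coding genes of the GENCODE M1 annotation (383 of 421), with the longest overlap in 205 different genes. The gene bodies held 192 domains entirely (45.6%, interval 40.8 to 50.5%). A further 96 covered the start of that gene (22.8%), 74 covered its end (17.6%), 21 covered the whole gene from before its start to past its end (4.99%) and 38 overlapped no protein-coding gene (9.03%). Narrower domains were placed differently, with 44.2% over the start, 35.1% inside, 3.87% over the end and 16.6% outside. Counting any protein-coding gene, the broad domains covered an annotated start in 126 of 421 cases (29.9%, interval 25.6 to 34.6%) and the narrower ones in 47.0%. The classes differ in width by the rule, and a wider domain crosses a gene end more readily, so these shares are given as a description with no allowance for width.

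The domains that crossed a gene start were lopsided. Over the 117 that covered the start of their gene, the median reach was 758 bp upstream and 3236 bp downstream of the start, and 99 reached farther downstream than upstream. These include the 21 that covered a whole gene, whose downstream reach runs past the end of the gene. The 95 domains that crossed the end of their gene reached a median of 2318 bp beyond the annotated end, from 27 to 8306 bp, and 82 went more than 1 kb beyond it. Averaged over the 193 carrier genes of 5 kb or longer, broad domains covered 3.07% of the kb that lay farthest upstream (4 to 5 kb away), 37.5% of the kb next to the start, 46.3% of the first decile of gene length, 29.8% of the eighth decile and 41.1% of the last. Beyond the gene they covered 42.2% of the first kb and 8.43% of the kb from 4 to 5 kb. These genes were taken because a broad domain overlapped them, so higher coverage inside the gene than far outside it is in part set by that choice.

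**Figure D1:**
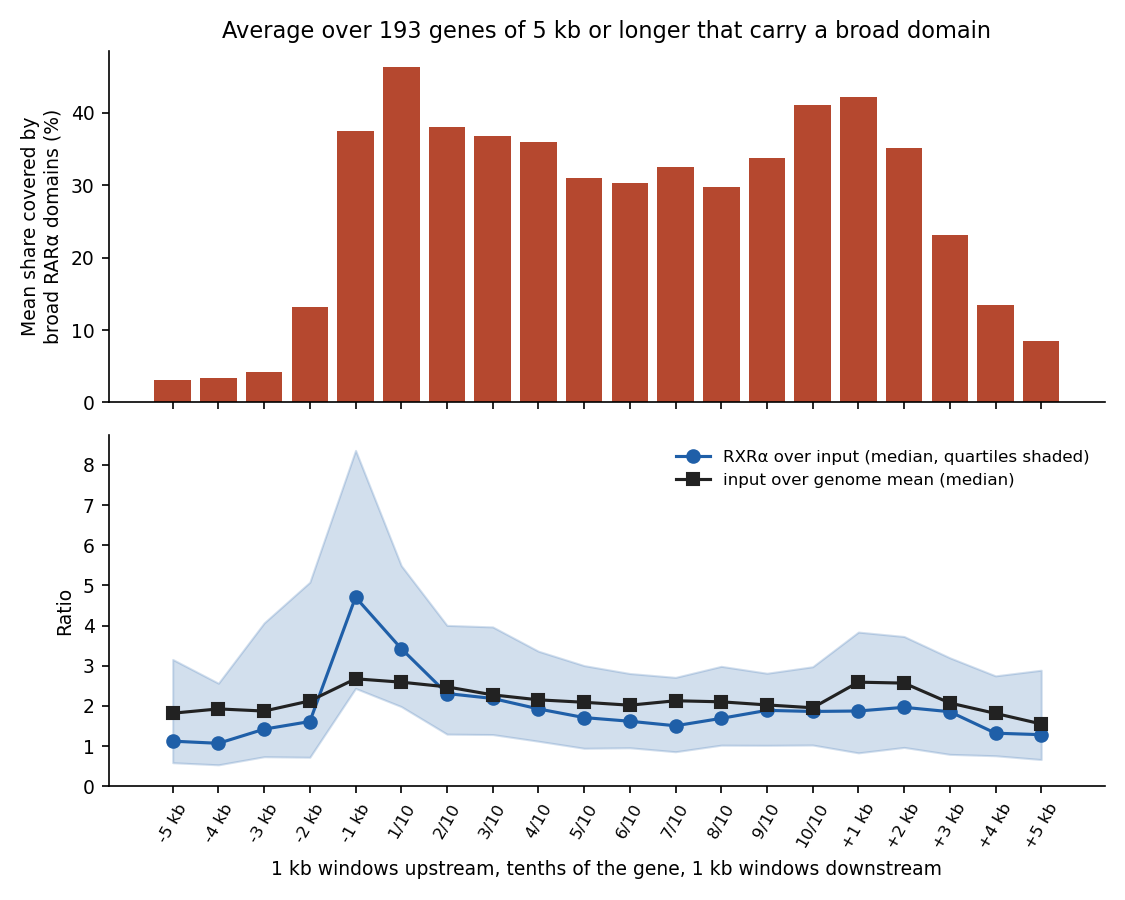
Upper panel, mean share (%) of each window covered by broad RARα domains over 193 carrier genes of 5 kb or longer, for 1 kb windows upstream and downstream and deciles of gene length. Lower panel, median RXRα over input with quartiles and median input over the genome mean in the same windows: coverage stays between 29.8 and 46.3% along the gene, while RXRα over input falls from 4.71 in the kb before the start to 1.51 in the seventh decile.

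The 227 protein-coding genes that carried a broad domain over at least 1 kb made up 1.01% of 22380, whereas 10.2% carried a domain of 1 to 3 kb. A domain was counted for each gene record it overlapped by 1 kb, so that 1 domain at the Ugt1a genes counted for several of them. In all, 45 broad domains overlapped at least 2 protein-coding genes. Of these 227, 67 carried at least 2 and 18 at least 5, 89 were covered over at least 50% of their length and 24 over their whole length. Carriers had a median length of 19641 bp against 15420.5 bp for all protein-coding genes. The share of carriers was 0.860% among genes of 1 to 5 kb, 1.22% at 5 to 20 kb, 1.12% at 20 to 100 kb and 1.17% above 100 kb, so that it hardly varied with gene length above 5 kb.

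Cps1, which encodes carbamoyl phosphate synthetase, the enzyme of the first step of the urea cycle, had the most sequence in broad domains. Its gene on the plus strand at chr1:67169600-67277833 carried 6 domains with 197 peaks, which covered 101227 bp or 93.5% of the gene. The widest domain of the whole list, chr1:67213821-67281090, joined 120 peaks over 67270 bp, began 44221 bp past the start and ran 3257 bp beyond the annotated end. No window along it met the threshold for an RXRα region, and over all 6 domains the RXRα signal was 1.62 times the input. In steps of 10 kb from the start, RXRα over input stayed between 1.34 and 1.76 over the first 110 kb. The input was itself 3.15 times the genome mean in these domains. By contrast, the 10 kb upstream of the start were 7.49% covered and had an RXRα signal of 3.95 times the input, with a maximum in the kb from 7 to 6 kb upstream of the start, at 46.9 times the genome mean.

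**Figure D2:**
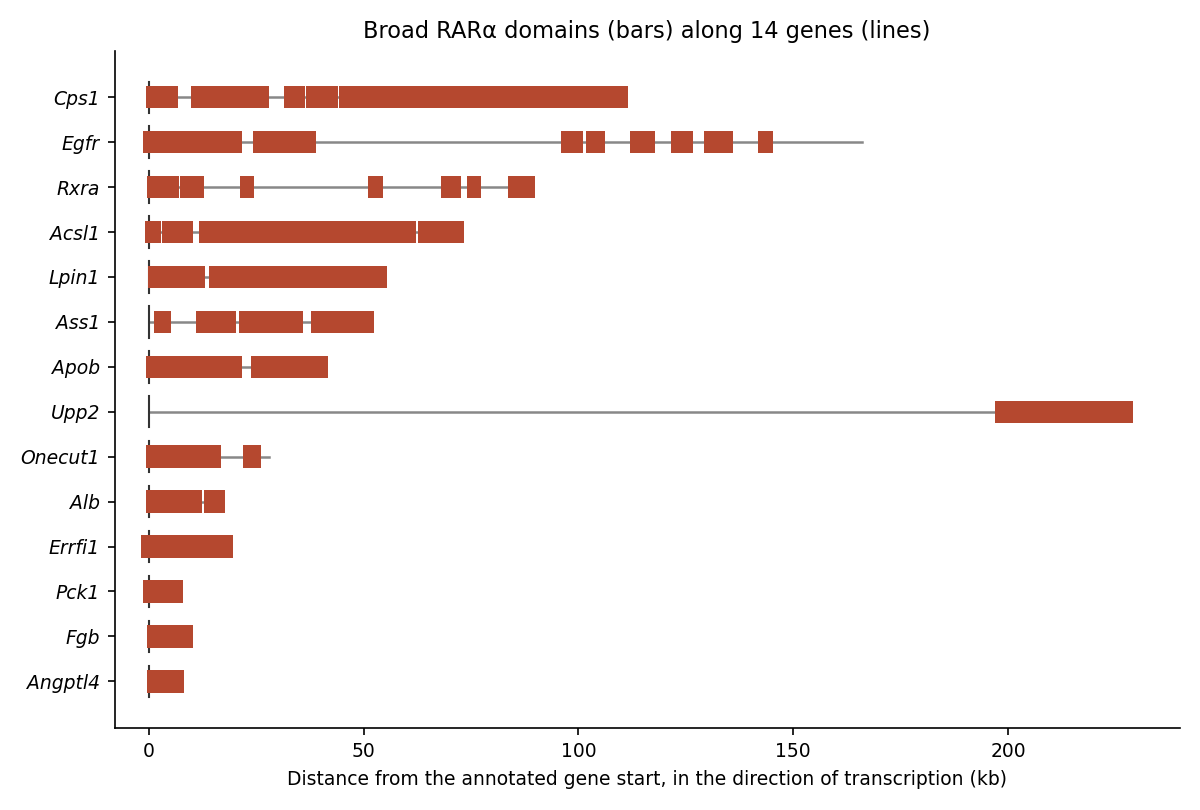
Broad RARα domains (bars) drawn to scale along 14 carrier genes (lines), in kb from the annotated start in the direction of transcription. Cps1, Acsl1, Lpin1 and Apob are filled almost end to end, Egfr and Rxra hold domains with long gaps, and the domains of Pck1, Fgb and Errfi1 reach past both ends of the gene.

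Acsl1, an acyl-CoA synthetase gene that activates long-chain fatty acids, was covered as fully as Cps1 but had more RXRα. Its 6 domains covered 96.5% of the gene, and the widest, chr8:47575251-47613641, spanned 38391 bp with 79 peaks and 5 RXRα regions. RXRα over input was 4.86 in the domain over the start, 5.58 in the third domain, 3.19 in the widest and 1.53 in the domain over the end. The domain values were therefore highest in the first part of the gene and lowest at its end. Lpin1, a phosphatidate phosphatase and coactivator gene, was covered over 97.9% by 3 domains with ratios of 2.33, 2.92 and 3.08 from start to end, which is not that order.

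Egfr, the gene of the epidermal growth factor receptor, carried 10 domains that covered 40.4% of its 165956 bp. The 3 domains nearest to the start had RXRα over input of 3.86, 2.42 and 3.00. The 4 domains farthest from the start had 0.735, 0.741, 0.724 and 0.842, so RXRα lay below input there while RARα peaks still joined over 3140 to 5110 bp. Over 10 kb steps the input stayed between 2.14 and 3.32 times the genome mean along the gene, including steps with no broad domain. Ttc39c carried the most domains of any gene, 13, which covered 54.6% of it at an RXRα ratio of 2.62.

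**Figure D3:**
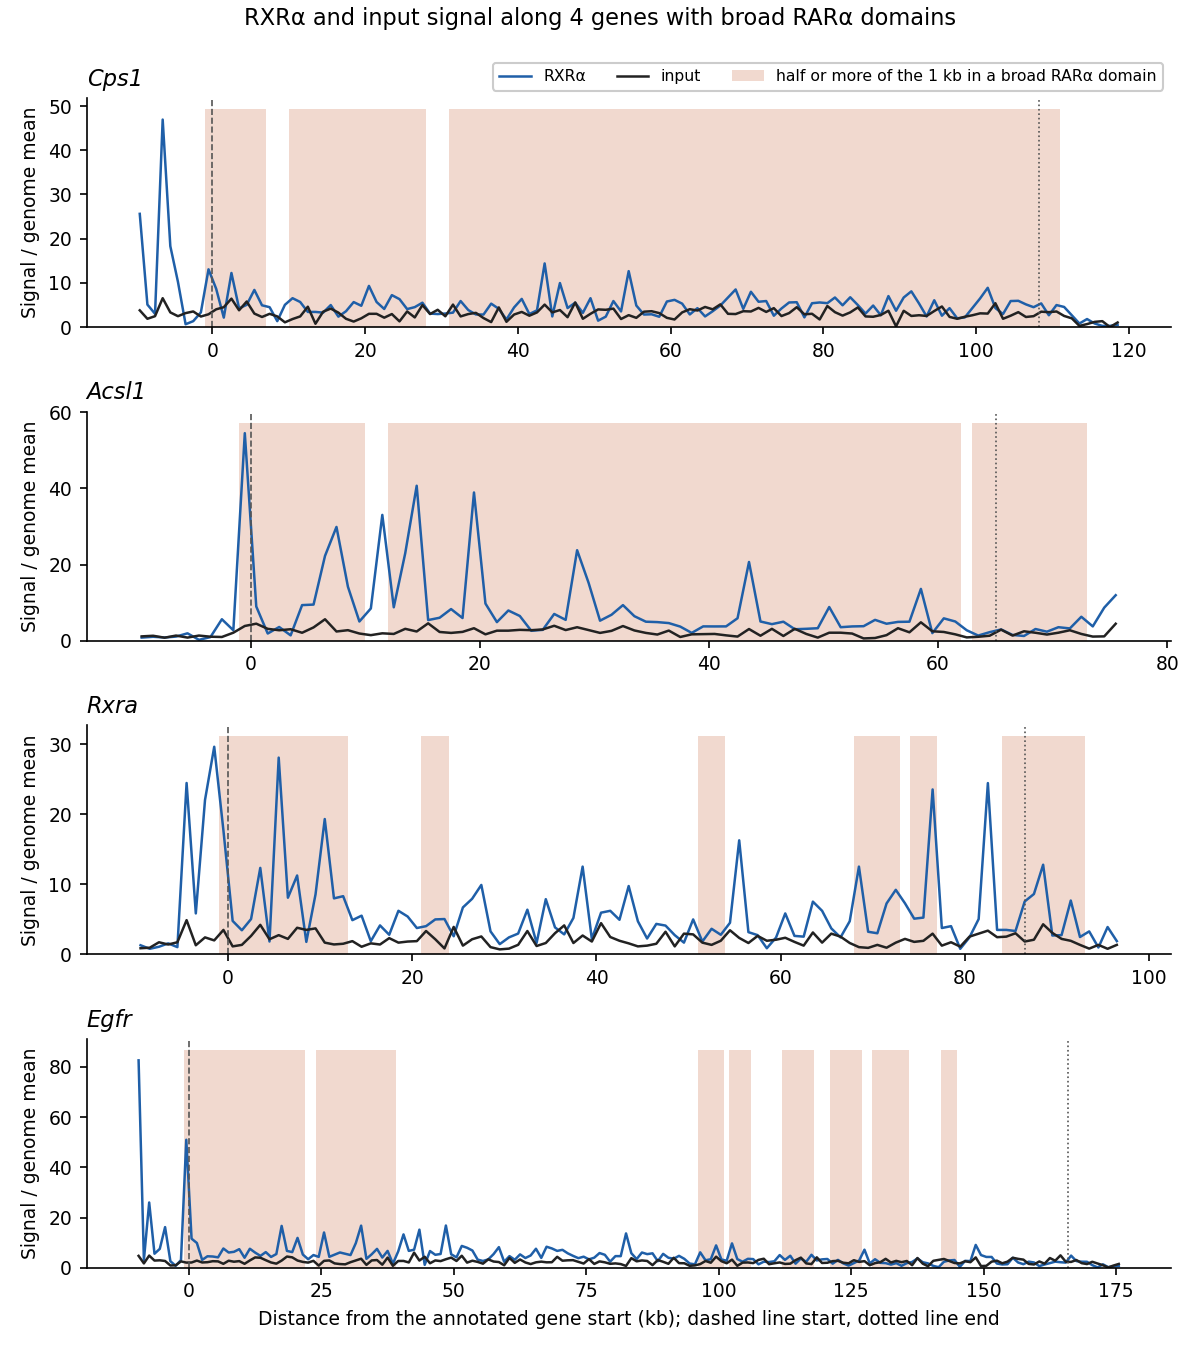
RXRα (blue) and input (black) signal in 1 kb windows, each relative to the genome mean of the input, along Cps1, Acsl1, Rxra and Egfr, in kb from the annotated start. Shading marks windows with at least 50% of their bases in a broad RARα domain; RXRα stands out as single peaks, such as 46.9 times the mean upstream of Cps1, 54.5 times just before Acsl1 and 82.6 times upstream of Egfr, and stays near the input over most of the shaded stretch of Cps1.

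The other genes among the 15 widest domains were Upp2 (27560 bp), a uridine phosphorylase gene, Errfi1 (21401 bp), a feedback inhibitor of EGF receptor signalling, Onecut1 (17381 bp), a hepatocyte transcription factor gene, Ttc39c (16251 bp), Ass1 (14661 bp), a urea cycle enzyme gene, Alas1 (14411 bp), the gene of the first enzyme of haem synthesis, Bcl6 (14101 bp), a transcriptional repressor gene, and Slc7a2 (13781 bp), a transporter gene for basic amino acids. Their RXRα over input ranged from 1.24 in the Slc7a2 domain and 1.36 in the Upp2 domain to 6.15 in the Bcl6 domain and 6.56 in the Onecut1 domain. The Upp2 domain lay 197082 bp past the annotated start, in the last stretch of a gene model of 225674 bp.

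The 10 genes of 5 kb or longer with the largest share covered each had their whole length inside a single domain. Fga, Fgb and Fgg encode the chains of fibrinogen and lie side by side on chromosome 3 in separate domains of 10000, 10790 and 10621 bp. Ahsg and Serpina3k encode secreted plasma proteins, Fabp1 the liver fatty acid-binding protein, Pck1 the enzyme that commits carbon to gluconeogenesis, Angptl4 a secreted inhibitor of lipoprotein lipase, and Xbp1 a transcription factor of the unfolded protein response. Errfi1 was the longest at 14974 bp. RXRα over input was highest over Angptl4, at 8.73, and lowest over Xbp1, at 2.86, and the fibrinogen genes had 6.48, 6.60 and 4.87. All of these domains held at least 1 RXRα region, and Fgg held 8.

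The carriers were read against gene lists that describe liver functions, and the background was 1.01% of all protein-coding genes. Domains of 1 to 3 kb were also carried well above their background of 10.2% in such lists. Their shares were 50% for hepatocyte markers, 62.5% for urea cycle genes, 62.2% for amino acid breakdown and 60.9% for lipoprotein genes. A high share is thus not particular to the broad domains. Among markers of the hepatocyte, the main metabolic cell of the liver, 9 of 12 carried a broad domain (75%, interval 42.8 to 94.5%). They were Alb, Ttr, Apoa1, Apob, Cps1, Ass1, Tat, Cyp2e1 and Hnf4a, while Serpina1a, Asgr1 and Asgr2 carried none. Each of the 9 is counted again in a list given below, so the lists are not independent of each other. Markers of stellate cells (0 of 11), Kupffer cells (0 of 12), endothelial cells (0 of 10) and cholangiocytes (0 of 6), and genes of neurons and muscle (0 of 16), carried none, with upper limits from 20.6 to 45.9%. A domain of 1 to 3 kb was carried by 1 endothelial marker (10%) and 1 gene of neurons and muscle (6.25%), and by none of the others. In whole liver tissue, RARα on fewer cells and weaker signal in each cell cannot be told apart, and the counts of 0 do not show that RARα was absent from the rarer cell types.

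Genes of secreted plasma proteins were among the carriers. Of the carrier proteins and protease inhibitors of plasma, 10 of 31 carried a broad domain (32.3%). The albumin gene, Alb, had 95.9% of its gene covered, and the haptoglobin gene, Hp, 100%. The transferrin gene, Trf, has 2 gene records, covered over 13.1% (40100 bp long) and 19.9% (26444 bp long) by the same domain. A broad domain was also carried by 5 of 22 coagulation genes (22.7%), 4 of 27 complement and acute phase genes (14.8%) and 3 of 23 lipoprotein genes (13.04%). Apob, the structural protein of very low density lipoproteins, was covered over 93.7% at an RXRα ratio of 1.73, while the shorter Apoa1 and Apoa5 were covered whole at 6.31 and 6.64.

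Among the urea cycle genes Cps1, Ass1 and Asl of 8 carried one (37.5%), with 93.5, 80.8 and 25.7% of the gene covered. Of the genes of amino acid breakdown 7 of 37 did (18.9%), among them Tat, Tdo2, Hpd, Mat1a, Gnmt and Ahcy. Tat, the tyrosine aminotransferase gene, had 99.8% of its length in 2 domains, and Mat1a, which makes S-adenosylmethionine, had 90.2%. Of the genes of fatty acid oxidation and ketone formation 6 of 31 did (19.4%), among them Acsl1, Slc27a2, Fabp1 and Angptl4. The counts were lower among genes of lipid and sterol synthesis (2 of 29, 6.90%), glucose metabolism (2 of 19, 10.5%), bile acids (2 of 19, 10.5%) and cytochromes P450 (4 of 98, 4.08%). A domain of 1 to 3 kb was carried by 48.3, 52.6, 52.6 and 14.3% of these 4 lists, against a background of 10.2%. For lipid and sterol synthesis, glucose metabolism and bile acids the low counts thus do not mean few RARα peaks. The share of cytochromes P450 was near the background. The intervals of most lists overlap, so their order is not established.

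Regulators were also present. Of the hepatocyte transcription factor genes 8 of 28 carried a broad domain (28.6%), namely Hnf4a, Cebpa, Cebpb, Onecut1, Nr1i3, Klf15, Xbp1 and Nfe2l2. RXRα over input in these was highest at Nfe2l2, the regulator of antioxidant genes, at 11.8, and at Hnf4a, at 11.5, and lowest at Nr1i3, the constitutive androstane receptor gene, at 2.28. The Nr1i3 domain overlapped the neighbouring gene Tomm40l over more bases (3185 against 1372 bp). Clock output genes Nr1d1, Dbp and Tef (3 of 18, 16.7%) had 7.08, 7.43 and 9.84. Rapid response genes (6 of 41, 14.6%) were Klf9, Zfp36, Gadd45g, Errfi1, Socs2 and Tob1. Their ratios were 5.02 for Klf9, 8.09 for Gadd45g, 13.8 for Zfp36, 3.62 for Errfi1, 13.4 for Socs2 and 3.60 for Tob1. Chaperone and secretory pathway genes (3 of 28, 10.7%) were Hspa5, Calr and Herpud1, and genes of the pericentral zone (2 of 12, 16.7%) were Glul and Cyp2e1. The background was 1.01% of all protein-coding genes. A domain of 1 to 3 kb was carried by 60.7% of the transcription factor genes and 38.9% of the clock genes. It was carried by 53.7% of the rapid response, 50% of the chaperone and 25% of the pericentral genes, against a background of 10.2%.

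Large gene families of general or non-hepatic function were also counted. A broad domain was found at 0 of 144 cytosolic ribosomal protein genes (up to 2.53%), 0 of 67 histone genes (up to 5.36%), 0 of 1113 olfactory receptor genes (up to 0.331%) and 1 of 77 mitochondrial ribosomal protein genes, which was Mrpl49. The Mrpl49 domain overlapped the neighbouring gene Syvn1 over more bases (1952 against 1182 bp). Cytosolic ribosomal protein, histone and olfactory receptor genes are short, with median lengths of 2366.5, 530 and 960 bp. No gene below 1 kb in length could meet the overlap of 1 kb. The counts of 0 for histone and olfactory receptor genes were thus in large part set by that rule, and their upper limits make no allowance for it.

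**Figure D4:**
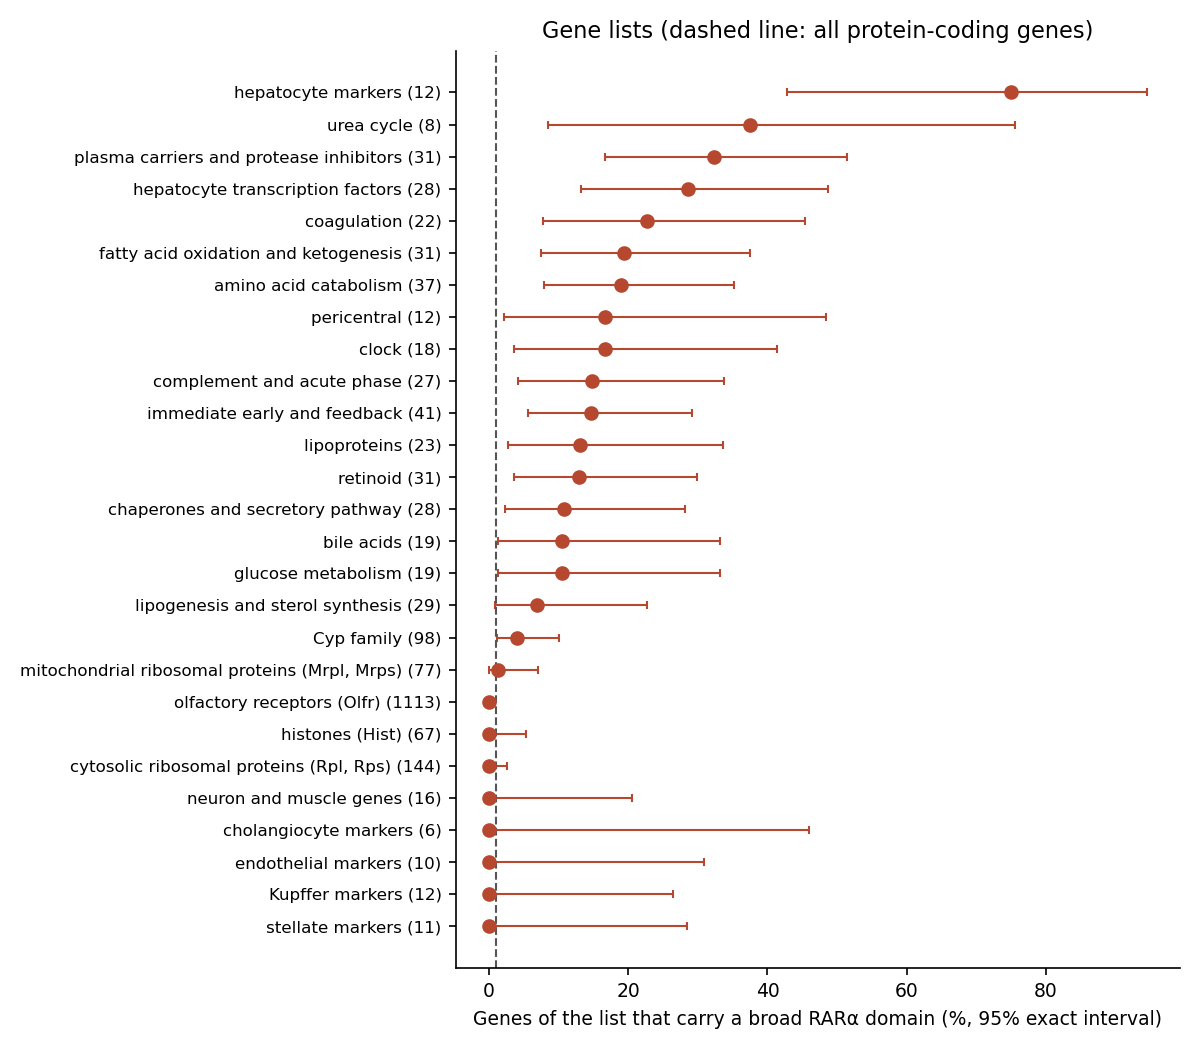
Share (%) of the genes in each list that carried a broad RARα domain, with the 95% exact interval and the number of genes matched in parentheses; the dashed line is the background of 1.01%. Hepatocyte markers stand at 75%, and the lists of the other liver cell types at 0.

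The retinoid pathway itself was covered in 4 of 31 genes (12.9%, interval 3.63 to 29.8%). Rxra, the gene of RXRα, had 7 domains over 34.5% of its 86518 bp. From start to end they had RXRα over input of 4.48, 3.83, 1.73, 1.96, 5.88, 4.93 and 2.32, so both high and low values were found along the gene. The kb from 2 to 1 kb upstream of the start had 29.7 times the genome mean. Another domain lay 3304 bp downstream of Rxra. Rbp4, which encodes the plasma carrier of retinol, was covered over 99.9% by 2 domains with ratios of 3.44 and 3.12. Dhrs3, a retinal reductase gene, had 1 domain over its start with a ratio of 5.89 and 4 RXRα regions. Adh1, an alcohol dehydrogenase gene that can oxidise retinol, had 1 inside the gene with a ratio of 1.53 and no RXRα region.

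The other 27 retinoid genes carried none, including the receptor genes Rara, Rarb, Rarg, Rxrb and Rxrg. Among them were also the retinoic acid hydroxylase genes Cyp26a1 and Cyp26b1 and the aldehyde dehydrogenase genes Aldh1a1, Aldh1a2, Aldh1a3 and Aldh1a7. The retinoic acid binding protein genes Crabp1 and Crabp2, Lrat, Stra6, Rdh10, Rdh11, Rdh16, Adh4 and Bco2 carried none either. Nor did the corepressor genes Ncor1 and Nrip1 and the coactivator genes Ncoa1, Ncoa2 and Ncoa3. Of the pathway, 11 genes carried a domain of 1 to 3 kb (35.5% against a background of 10.2%). Rara had 3 of these narrower domains and Rarb 1. Cyp26a1, a classic target gene of retinoic acid, had neither a broad nor a narrower domain overlapping it by 1 kb.

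RXRα along the domains was measured in a library that the selection had not used. Over each domain the RXRα signal was divided by the input, with the input taken as at least the genome mean. The ratio had a median of 3.33 (interval 2.99 to 3.68) and ran from 0.474 to 22.1, against 4.71 (interval 4.60 to 4.82) in the domains of 1 to 3 kb. In the 3 kb on either side it was 2.39, against 1.72 beside the narrower domains. These flanks were not cleared of other domains, and 62 of 402 neighbouring pairs of broad domains lay within 500 bp of each other. The flank values of the broad class therefore include sequence of other broad domains, and the comparisons with flanks are in part set by that. RXRα was higher inside than in the flanks in 264 of 421 broad domains (62.7%) and in 83.6% of the narrower ones. The highest 160 bp window of a domain had a median ratio of 21.5 in the broad and 17.6 in the narrower domains, and a wider domain offers more windows. Averaged over the domain, RXRα was thus lower in the broad class, while its highest window and its surroundings had more.

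Broad domains held at least 1 RXRα region in 276 of 421 cases (65.6%, interval 60.8 to 70.1%) against 54.8% of the narrower ones. A wider domain has more room for one, and per kb the broad domains held 0.286 regions and the narrower ones 0.517. The RXRα signal was spread unevenly. The strongest 10% of bins held a median of 38.7% of the RXRα in a domain and 28.6% of the input, and RXRα was more concentrated than input in 356 of 421. The highest RXRα window lay within 500 bp of the strongest RARα summit in 153 of 421 domains. Over all 421 the median distance was 910 bp. At the strongest RARα summit the RXRα ratio had a median of 5.41 in broad and 6.45 in narrower domains.

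Place in the gene went with the RXRα level. Domains over the start had a median ratio of 5.44 and an RXRα region in 90.6% of cases (interval 82.9 to 95.6%), and those covering a whole gene had 6.31 and a region in 21 of 21. Domains inside genes had 2.52 and a region in 51.6% (interval 44.3 to 58.8%), those over the end 2.74 and 62.2%, and those outside genes 3.68 and 60.5%. In the domains of 1 to 3 kb the ratio was 4.56 over starts and 4.77 inside genes. The broad domains inside genes thus lay below the narrower ones inside genes, while those over starts lay above. At the strongest RARα summit the same was seen, with 3.82 against 6.64 inside genes and 9.50 against 6.23 over starts. That summit was picked from more peaks in a broad domain. Over all RARα summits the ratio was lower in broad domains at both places. It was 1.92 against 3.04 inside genes and 3.50 against 4.32 over starts, so the order over starts depended on the measure. The score of the best RARα peak also differed by place, with medians of 110.5 over starts, 37 inside and 45.5 over ends.

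**Figure D5:**
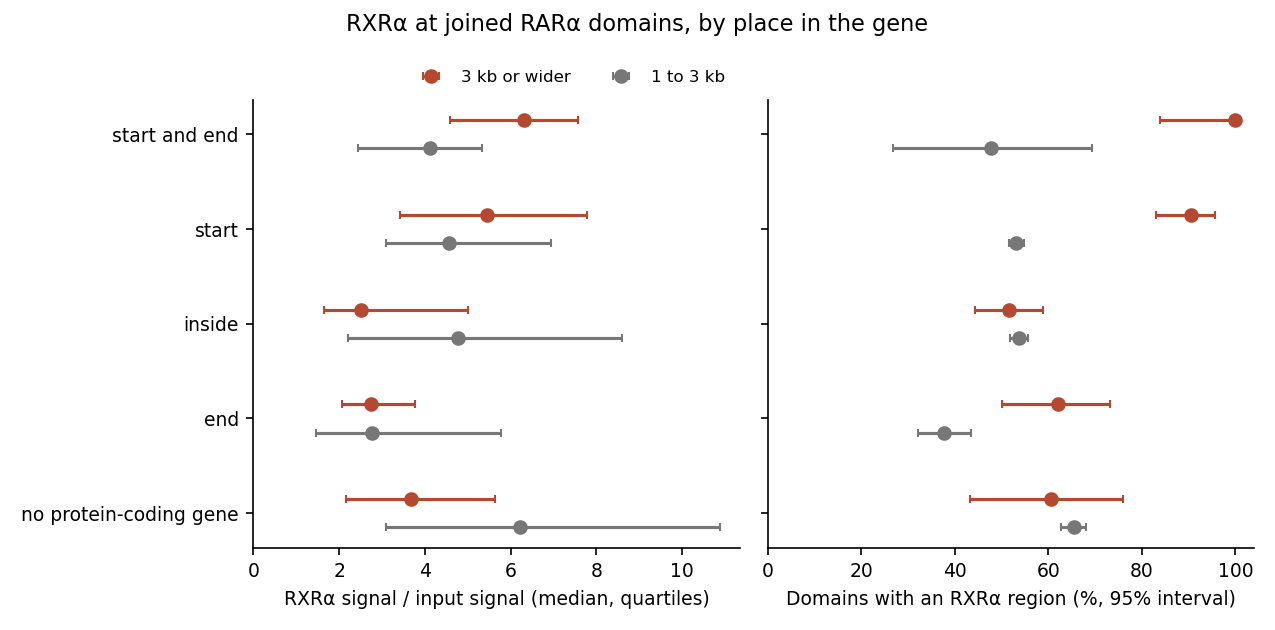
Left, RXRα signal over input (median and quartiles) and right, share of domains with an RXRα region (%, 95% exact interval), for broad (red) and 1 to 3 kb (grey) joined RARα domains by their place in the gene. Broad domains inside genes have a lower ratio than narrower ones (2.52 and 4.77), and broad domains over starts hold a region more often (90.6 and 53.2%).

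The 5 domains with the most RXRα over input were 3180 to 4790 bp wide. The highest ratio was 22.1 in a domain of 4030 bp, 3466 bp upstream of Klf9, a glucocorticoid and thyroid hormone responsive transcription factor gene. It was followed by 17.6 in a domain inside Osbpl1a, an oxysterol binding protein-like gene, 16.97 in a domain 70436 bp downstream of Phlda1, 13.8 over Zfp36, which promotes mRNA decay, and 13.4 over the start of Socs2, a feedback inhibitor of growth hormone signalling. In all, 23 domains had a ratio above 10.

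At the other end, 15 domains had less RXRα than input. Among the lowest were the first domain of Sord, a sorbitol dehydrogenase gene, at 0.571, the fourth of Pzp, a protease inhibitor gene, at 0.601, and the second of Mgst1, a glutathione transferase gene, at 0.712. These 3 lay inside the gene and had no RXRα region, and their best RARα scores were 19 to 30. Within Mgst1 the neighbouring domain over the start had 6.29, so a gene could hold both kinds.

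Input was raised along the domains as well. Relative to the genome mean it had a median of 2.83 (interval 2.74 to 2.95) in the broad domains and 2.74 in the narrower ones, with 2.30 and 1.81 in their flanks, and it was above the flanks in 74.1% of the broad domains. The flanks were again not cleared of neighbouring domains. It was below the genome mean in 1 of 421 and above 5 times the mean in 17. The highest was 66.6 times the mean in a domain of 3911 bp on chromosome 17 (chr17:39979841-39983751) that held the highest RARα score of 382 and an RXRα ratio of 1.48. Next came the domains at Trpm8 (12.8 and 12.2), Ugt1a10 (9.67) and Heatr7b1 (6.88), which lie close together on chromosome 1. Alb had 6.68. No RARα input was used here, and the part of the raised input in the RARα domains was not tested.

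The broad domains were poorer in CpG than the narrower ones. The ratio of observed to expected CpG had a median of 0.232, against 0.521 in the narrower domains, and GC was 46.8 against 53.9%. Over starts the CpG ratio was 0.417 in broad and 0.746 in narrower domains. The domains over starts had median widths of 3865.5 and 1290 bp, and no allowance for width was made. Exons of protein-coding genes made up a median of 8.10% of a broad domain and 14.03% of a narrower one.

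Of the 38 domains outside protein-coding genes 14 overlapped another kind of annotated gene, and 19 lay within 10 kb of a protein-coding gene. The widest, 27541 bp, covered Neat1, the long noncoding RNA that builds nuclear paraspeckles, with 14 RXRα regions, the most of any domain, and a ratio of 6.10. The next covered Serpina4-ps1 (13060 bp, ratio 5.51) and Malat1, another nuclear noncoding RNA (9250 bp, ratio 2.49). A domain of 8861 bp lay 87683 bp upstream of Bcl6 with a ratio of 8.57 and the highest single RXRα window of the broad domains, 223 times the input, and a domain of 8181 bp lay 119547 bp upstream of B3galt1 with 3.33. The gene of miR-122, the main microRNA of hepatocytes, lay in a domain of 3190 bp with a ratio of 1.36.

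Along the genome the domains were unevenly spread. Chromosome 2 held 63, and chromosome 19 had the most per Mb (26 domains, 0.424), against 7 or 0.0582 per Mb on chromosome 13. Chromosome X held 0 of the 421, with 1713 of the 143280 peaks and 63 of the 7750 domains of 1 to 3 kb. The mice were male, and with such small shares the 0 is not read as a lack particular to broad domains. Of 402 pairs of neighbouring broad domains 62 lay within 500 bp of each other and 34 within 100 bp, so that several, as in Cps1 and Acsl1, are parts of longer stretches that a somewhat larger gap would join.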

How the data were processed

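The authors aligned reads with Bowtie and called peaks with MACS. The study's methods name mm10 for alignment and mm9 for annotation. The deposited files give mm9, and 0 peaks passed the end of an mm9 chromosome, so mm9 sequence and GENCODE M1 genes were used. The RXRα and input tracks were deposited as a signal, namely whole-number coverage in 32 bp bins, and since the sums of 22 of 22 chromosomes were multiples of 5, a read was taken to add 5 to the total. For RARα the deposited list gives a score and an FDR in percent per peak (up to 4.75), and neither was used as a filter. The study kept peaks with a score above 20 and set its background at 20 fold of the input, but the list does not state whether its score is that fold, and joining peaks above 20 was an alternative.

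Tracks were scaled to the same mean. A gene carried a domain when they overlapped by 1 kb or more. Named genes were those of the 15 widest domains, the 10 genes of 5 kb or longer with the largest share covered, the 5 highest and 5 lowest domains by RXRα over input, the 5 highest by input, the 5 widest outside genes, 3 on each side of the width limit and members of the lists. Phlda1, Klf9 and other nearest genes locate such domains. The genes with the most domains or the most covered sequence were named after their values were seen. Members, lists and tests were chosen with earlier results of these data known. The listed symbols Map2, C5, Tkfc, Hmgcs1 and Cebpd had no match in the annotation and were left out. The alternatives were other gaps, widths, score and FDR limits, overlaps and RXRα thresholds. Joining, ratios, regions and gene positions were tested on simulated data. Software was Python 3.11.15, matplotlib 3.10.9, pysam 0.24.0, scipy 1.17.1, numpy 2.4.6 and pandas 2.3.3. There is 1 library per antibody, so no test was run. Some genes that the rule or the lists name are not reported here by name. Expression, and a RARα signal track, were not analysed here.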

Additional observations from a re-analysis of the deposited data

How the results depend on the processing

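No paired analysis was possible because no result comes from a test. The number of broad domains (421) was 2, 687 and 1234 with gaps below 10, of 100 and of 500 bp, 1144 and 145 with widths of 2 and 5 kb, and 130 with peaks of score above 20. The share covering a gene start (29.9%) was 35.2 and 43.2% with gaps of 100 and 500 bp, 38.7% at 2 kb and 37.5% with all transcript starts. The share of carrier genes (1.01%) was 0.809% with 50% of the domain in the gene and 1.45, 1.91 and 3.96% with gaps of 50, 100 and 500 bp. The RXRα over input median (3.33) was 9.40 with the genome mean input only, 21.5 in the highest 160 bp window, and 3.99 and 2.92 at 2 and 5 kb. The share with an RXRα region (65.6%) was 99.5, 88.6 and 49.9% at ratios of 5, 10 and 30, and 78.9% with mean input only. Of the 38 alternatives, the others stayed within the counting interval, or within 1.5 times for counts, and they include the median input (2.83) under every setting and leaving out the 17 domains with input above 5 times the mean, an alternative chosen after seeing the data. The counts changed by construction, and the cause of the changes in shares and medians was not tested. Without replicates, the variation between mice is not known, and the depth of the tracks limits the ratio of single windows.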
